A study of Homo sapiens with 2 samples.

Results

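The insulin-like growth factor (IGF) axis was followed here through 10 genes: the ligands IGF1 and IGF2, the receptors IGF1R and IGF2R, the binding proteins IGFBP2, IGFBP3, IGFBP4 and IGFBP5, the binding-protein protease PAPPA and the receptor adaptor IRS1. Members were all probe sets annotated to 1 of these genes alone, which gave 37 probe sets for 9 genes among 41097 single-gene probe sets for 19775 genes. The 3 probe sets for IGF2 are also annotated to the readthrough gene INS-IGF2, so IGF2 has no value here. SK-N-MC is a human cell line labelled as a neuroepithelioma line and now assigned to the Ewing tumour family. The study set a stably transfected line carrying human melanotransferrin (MTf, now MELTF) cDNA in the pCMV-Script vector, labelled hyperexpression clone 4, against a stably transfected line with the same vector and no insert, labelled vector control 1. Each group holds 1 such line, the insert is driven by the vector's viral promoter, and both lines carry the vector. RNA of each line was read on 1 Affymetrix U133 Plus 2.0 array, so every value is 1 measurement and there is no test between the lines.

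IGF1 and IGF2 are small secreted growth factors that activate the tyrosine kinase receptor IGF1R, which recruits IRS1 and through it the PI3K and AKT pathway. IGF2R, the cation-independent mannose 6-phosphate receptor, has no kinase and carries IGF2 to lysosomes. The IGFBPs hold the ligands in the extracellular fluid, and pappalysin-1, the product of PAPPA, cuts IGFBP4 and IGFBP5 and so releases IGF near its receptor. Ewing tumour cells are known for a dependence on IGF1R signalling, and IGFBP3 is a known target repressed by their EWSR1-FLI1 fusion protein.

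PAPPA was the member that stood highest in the MTf clone, at 1.99-fold the vector control on its brightest probe set, and IGF1 the one that stood lowest, at 1.42-fold lower. IRS1 was lower on all 3 of its probe sets, whereas IGF1R, IGF2R and IGFBP2 lay close to the control level. IGFBP3 was below the detection floor on both arrays. Counted by the brightest probe set, 8 members were measured, 5 of them higher (47.1% of all measured genes were) and 3 lower (52.8%), with a median log2 ratio (MTf clone over vector control) of 0.047, beside -0.022 over all 12663 measured genes. At 2-fold or more, 0 members were higher, beside 1.21% of all measured genes, and 0 were lower, beside 1.90%. With 8 members these counts do not set the axis apart from other genes. In RNA of a whole culture, fewer cells with a transcript and less of it per cell cannot be told apart.

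The floor for a measured signal was 208. It was set at the 90th percentile of the signals, on the 2 arrays, of 191 probe sets for gene families not expected in these cells (olfactory receptors, bitter taste receptors and keratin-associated proteins of hair). Of the 37 member probe sets, 26 lay above it on both arrays, 1 on the MTf clone array only and 10 on neither. Probe sets of 1 gene read the same RNA on the same array and are not replicates. Their disagreement gives the spread between probe sets only. It leaves out any error of culture, line or array that the probe sets of a gene share. The log2 ratios within a gene varied with a pooled SD of 0.35 across 5387 genes. This SD is a spread around each gene's own mean, not around 0. The share of all probe sets further than it from 0 was not counted, so counts of member probe sets beyond it, below, do not set a gene apart. Among the 26 probe sets, 15 were higher and 11 lower in the MTf clone, and 9 of the 15 belong to PAPPA. Over all single-gene probe sets that passed the floor on each array, 48.7% were higher and 51.2% lower. Just 1 member probe set, for PAPPA, passed 2-fold higher (1.24% of all measured single-gene probe sets) and 0 passed 2-fold lower (1.93%).

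**Figure D1:**
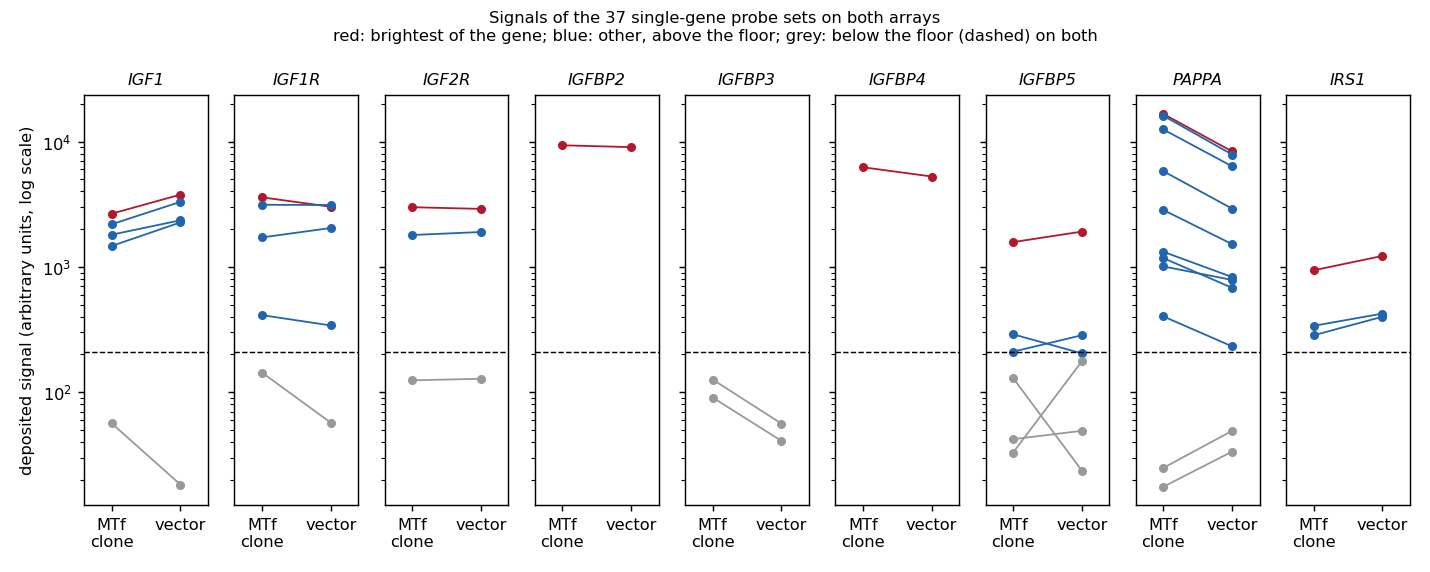
Deposited signal of each of the 37 single-gene probe sets (log scale, arbitrary units) on the MTf clone array (left point) and the vector control array (right point), by gene. The 9 PAPPA lines above the floor of 208 all run down toward the vector control and the 4 IGF1 lines above it all run up, while both IGFBP3 lines lie under the floor.

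Both arrays had the same trimmed mean signal as deposited (1000.12 each), so directions hold relative to all genes. Centred on the spiked-in hybridisation transcripts instead, the median log2 ratio of all measured genes was 0.46 and the members split into 7 higher and 1 lower. Centred on the poly-A spikes the median of all genes was -0.57 and the split 1 higher and 7 lower, with PAPPA the 1 still higher. The members' median minus that of all genes was 0.068 as deposited, 0.092 on the hybridisation spikes and 0.0074 on the poly-A spikes. Centring moves every gene above the floor by as much, so this difference can change only through genes near the floor. MELTF, the transfected gene, read 4449.4 in the MTf clone and 18.4 in the vector control on 1 probe set, at least 21.4-fold higher, while its other probe sets did not show this (209.3 in the MTf clone and 245.8 in the vector control on the brightest of them). Background probe sets had a median of 44 on the MTf clone array and 67.4 on the vector control array. Of 7 Ewing markers with a probe set all 7 were above the floor, with log2 ratios from -0.18 for EWSR1 to 0.76 for LIPI. The 3 brightest were CD99, STEAP1 and NKX2-2, with log2 ratios of 0.035, 0.47 and 0.11. The Ewing markers had a summed signal of 99712 in the MTf clone and 85293 in the vector control. All 7 fibroblast markers were also above it, with a summed signal of 36957 in the MTf clone and 38995 in the vector control. Of the hepatocyte, endothelial and melanocyte markers 4 of 5, 3 of 5 and 2 of 4 were below the floor on both arrays. Of the epithelial markers 3 of 5 were below it, and of the leukocyte markers 2 of 3, with KRT18 and PTPRC bright in both lines. Of 22 measured markers 1 was at least 2-fold higher and 1 at least 2-fold lower, beside 1.21% and 1.90% of all measured genes. The higher was endothelial CDH5 (424.8 in the MTf clone, 169.2 in the vector control, under the floor). The lower was epithelial KRT8 (245.6 in the MTf clone, 509.9 in the vector control). The part of these differences in the values below was not tested.

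The sequences just before the annotated starts of PAPPA, IGF1 and IRS1, the members with 3 or more measured probe sets that all lay on one side of 0, are shown because these starts differ in base composition. Each window holds the 250 bases before a start in RefSeq (GRCh38.p14), on the gene's strand, and capitals mark CG dinucleotides and the motif TATAAA.
PAPPA, chr9:116153541-116153790, plus strand: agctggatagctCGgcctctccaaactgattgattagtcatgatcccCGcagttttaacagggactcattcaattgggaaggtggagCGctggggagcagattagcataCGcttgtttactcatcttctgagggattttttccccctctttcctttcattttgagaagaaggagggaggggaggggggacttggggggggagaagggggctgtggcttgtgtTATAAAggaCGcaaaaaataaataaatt
IGF1, first start, chr12:102481748-102481997, minus strand: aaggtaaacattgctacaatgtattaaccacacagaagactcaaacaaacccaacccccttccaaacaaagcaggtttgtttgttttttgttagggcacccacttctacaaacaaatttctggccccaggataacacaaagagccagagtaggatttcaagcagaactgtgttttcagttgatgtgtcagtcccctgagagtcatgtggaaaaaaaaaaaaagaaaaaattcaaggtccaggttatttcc
IGF1, second start, chr12:102478551-102478800, minus strand: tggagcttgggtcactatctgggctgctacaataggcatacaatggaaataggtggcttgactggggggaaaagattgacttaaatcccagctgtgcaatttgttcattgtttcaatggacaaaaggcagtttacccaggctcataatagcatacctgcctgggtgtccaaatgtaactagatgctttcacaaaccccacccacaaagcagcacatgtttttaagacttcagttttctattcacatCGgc
IRS1, chr2:226799821-226800070, minus strand: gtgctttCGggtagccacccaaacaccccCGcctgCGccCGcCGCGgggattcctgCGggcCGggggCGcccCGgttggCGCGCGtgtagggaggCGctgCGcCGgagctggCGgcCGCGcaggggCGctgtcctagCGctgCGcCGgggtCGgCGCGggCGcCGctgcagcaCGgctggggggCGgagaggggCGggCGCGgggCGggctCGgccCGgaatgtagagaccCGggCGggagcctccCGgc

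The PAPPA window held 5 CG dinucleotides and 1 TATAAA, which begins 28 bases before the start. The IGF1 windows held 0 and 1 CG dinucleotides and the IRS1 window 39, against a median of 11 over 35116 such windows. TATAAA, searched on both strands, was present in 10.7% of all windows, and among the 12 windows of 9 members in those of PAPPA and IGFBP4. The 8-base run GGAAGGAA, a tandem pair of the core that ETS factors such as FLI1 recognise, was searched on both strands. It was in 0 of these 12 windows and in 3.06% of all, which says only that these letters are not in these windows.

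IGF1, the ligand with a value, was lower in the MTf clone on each of the 4 probe sets above the floor. The brightest, 209541_at, read 2659.9 in the MTf clone and 3774.2 in the vector control. Probe set 209542_x_at read 2189.8 in the MTf clone and 3304.4 in the vector control, and 211577_s_at read 1806.9 in the MTf clone and 2355.7 in the vector control. Probe set 209540_at read 1468.9 in the MTf clone and 2266.2 in the vector control. These probe sets gave between 1.30-fold and 1.54-fold lower signals, so they agree on direction and closely on size. Their log2 ratios averaged -0.53 ± 0.11 (SD over 4 probe sets), and all 4 lay further from 0 than the pooled SD. Centred on the hybridisation spikes the brightest stood at -0.0032, and 211577_s_at (-0.38 as deposited) turned positive. The remaining probe set, 241072_s_at, was below the floor on both arrays (56.4 in the MTf clone, 18.3 in the vector control). Of 2418 genes for which at least 3 probe sets passed the floor on each array, 14.7% were lower on all of them, and 48 had a lower mean log2 ratio than IGF1. IGF1 lies on chromosome 12, where the 604 genes above the floor on both arrays had a median log2 ratio of -0.0069 and where IGF1 ranked 559 from the highest. Its nearest measured neighbours, PARPBP and NT5DC3, had log2 ratios of 0.027 and 0.28. The 6 nearest ran from -0.67 to 0.42, with a median of -0.00047.

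The signalling receptor IGF1R had no common direction over its probe sets. The brightest, 203628_at, read 3589.3 in the MTf clone and 3020.3 in the vector control, 1.19-fold higher. Probe set 225330_at read 3131.6 in the MTf clone and 3116.2 in the vector control, and 203627_at read 1718.6 in the MTf clone and 2042.5 in the vector control, 1.19-fold lower. The dimmest above the floor, 243358_at, read 412.3 in the MTf clone and 340.9 in the vector control. The 4 log2 ratios ran from -0.25 to 0.27, averaged 0.070 ± 0.24 (SD over 4 probe sets) and all lay within the pooled SD. The fifth probe set, 208441_at, was below the floor on both arrays.

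IGF2R, the clearance receptor, read 2994.1 in the MTf clone and 2902.7 in the vector control on its brightest probe set. The second, 201392_s_at, read 1796.7 in the MTf clone and 1898.6 in the vector control. The log2 ratios of 0.045 and -0.080 lay either side of 0 and well inside the pooled SD. The remaining probe set was below the floor, at 124.4 in the MTf clone and 128 in the vector control.

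Among the binding proteins, IGFBP2 and IGFBP4 were each read by 1 probe set and were bright in both lines. IGFBP2, a binding protein with a preference for IGF2, read 9338.7 in the MTf clone and 9028.7 in the vector control, a log2 ratio of 0.049. IGFBP4, the main substrate of pappalysin-1, read 6239.4 in the MTf clone and 5263.9 in the vector control, a log2 ratio of 0.25. Both values were smaller than the pooled SD between probe sets of a gene.

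IGFBP5, another substrate of pappalysin-1, had 6 probe sets that did not agree. The brightest, 211959_at, read 1576.9 in the MTf clone and 1912.6 in the vector control, 1.21-fold lower. Probe set 203425_s_at, at 210.6 in the MTf clone and 285 in the vector control, was 1.35-fold lower and close to the floor. Probe set 211958_at went the other way, at 289.8 in the MTf clone and 204.1 in the vector control, and since the vector control value is under the floor it was at least 1.39-fold higher. The other 3 were below the floor on both arrays, and the log2 ratio of the brightest lay inside the pooled SD. IGFBP2 and IGFBP5 are next to each other on chromosome 2 with 0 RefSeq genes between them, at log2 ratios of 0.049 and -0.28.

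IGFBP3, the main carrier of IGF in blood, was below the floor on both of its probe sets. They read 126.3 and 90.7 in the MTf clone and 56.2 and 40.9 in the vector control, so both were brighter on the MTf clone array, at signals where probe sets for genes not expected in these cells also lie. No ratio is given for this gene, and the low signals do not show that the transcript was absent.

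**Figure D2:**
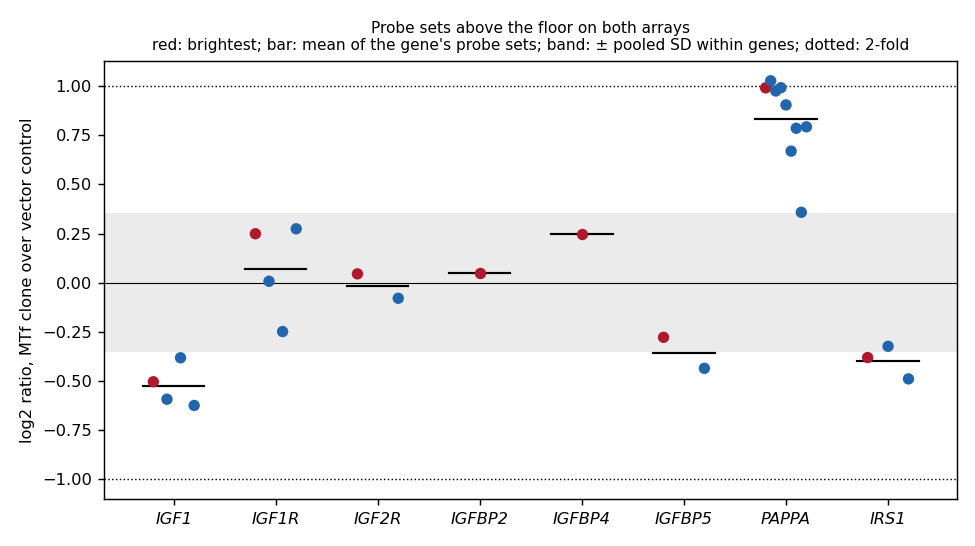
Log2 ratio (MTf clone over vector control) of the 26 member probe sets that passed the floor on each array, by gene, with the mean of each gene's probe sets (bar) and the pooled SD of 0.35 within genes (grey band). PAPPA lies above the band on all 9 probe sets and IGF1 below it on all 4, and the other genes lie in or across the band. The share of all probe sets outside the band was not counted.

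PAPPA, which codes for the metalloprotease pappalysin-1, was higher in the MTf clone on all 9 of its measured probe sets. The brightest, 224940_s_at, read 16605 in the MTf clone and 8348.5 in the vector control, 1.99-fold higher. Probe set 228128_x_at read 16071.4 in the MTf clone and 7881.5 in the vector control and was the only member probe set past 2-fold, at 2.04-fold. Probe set 224941_at, which has the same target accession as the brightest, read 12487.2 in the MTf clone and 6348 in the vector control. The 4 brightest thus gave almost the same ratio, 1.97-fold to 2.04-fold, with the 2-fold line passing between them. The next of them, 224942_at, read 5802.6 in the MTf clone and 2915.9 in the vector control and fell just short at 1.99-fold.

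The 5 dimmer PAPPA probe sets were also higher but by less, from 1.28-fold to 1.87-fold. Probe set 201981_at read 2845.5 in the MTf clone and 1519.4 in the vector control. The smallest ratio was that of 201982_s_at, at 1008.3 in the MTf clone and 786.6 in the vector control, and the dimmest, 1559928_at, read 402.5 in the MTf clone and 232.2 in the vector control. Over the 9 probe sets the log2 ratio averaged 0.83 ± 0.22 (SD), and each lay further from 0 than the pooled SD. Centred on the poly-A spikes the brightest stood at 0.38, and 201982_s_at (0.36 as deposited) turned negative. A further pair of probe sets with 1 shared target accession, 1558608_a_at and 1558607_at, lay under the floor on each array, at 24.9 and 17.6 in the MTf clone and 49.2 and 33.6 in the vector control. Of the 2418 genes with at least 3 such probe sets 14.2% were higher on all of them, and 13 had a higher mean log2 ratio than PAPPA. Of 16 genes with 8 or more such probe sets, PAPPA was 1 of 2 that were higher on every one (12.5%). PAPPA is itself among the 16 and the cut of 8 was set with earlier results known, so no conclusion is drawn from this share.

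**Figure D3:**
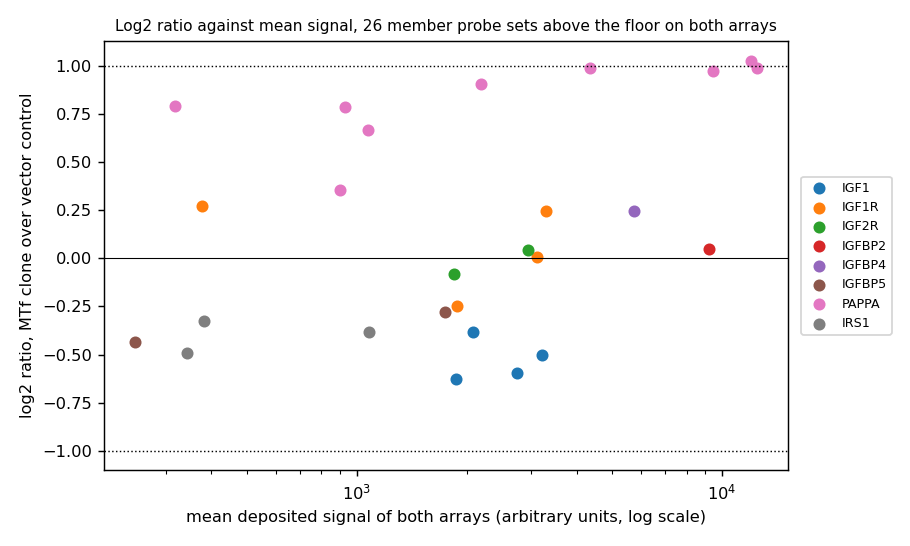
Log2 ratio (MTf clone over vector control) against the mean signal of both arrays (log scale) for the 26 member probe sets above the floor on both, coloured by gene. The 4 PAPPA probe sets with a mean signal over 4000 lie between 0.98 and 1.03, and the 5 dimmer ones between 0.36 and 0.91.

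PAPPA is the only member on chromosome 9, and genes of that chromosome were higher in the MTf clone as a whole. The 445 measured chromosome 9 genes with a signal over the floor on each array had a median log2 ratio of 0.48, or 1.39-fold, beside -0.0038 for genes of other chromosomes, and 89.9% of them were above 0, beside 49.5% elsewhere. At least 2-fold higher were 6.29% of chromosome 9 genes and 0.889% of the others. PAPPA was 0.52 above the chromosome's median on its brightest probe set, and 29 chromosome 9 genes and 122 of all 10795 genes stood above it. The part of the chromosome-wide difference in the value of PAPPA was not tested.

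Genes around PAPPA in the RefSeq order varied widely, and the measured ones are not directly next to it. Between PAPPA and these genes lie from 2 RefSeq genes (ASTN2) to 31 (BRINP1), with 14 for TNC and 22 for TMEM268. TNC (tenascin C), on its short-arm side, read 777.5 in the MTf clone and 304.3 in the vector control, a log2 ratio of 1.35. On the other side ASTN2, an astrotactin, had a log2 ratio of 0.17, TRIM32, a ubiquitin ligase, 0.76 and BRINP1 0.79. The 6 nearest measured neighbours had a median log2 ratio of 0.47, with LOC101928748 lowest at -0.084, a bound because its MTf clone signal was under the floor. TMEM268 stood at 0.11. For the other 9 members the median of the 6 neighbours lay between -0.18 and 0.12.

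**Figure D4:**
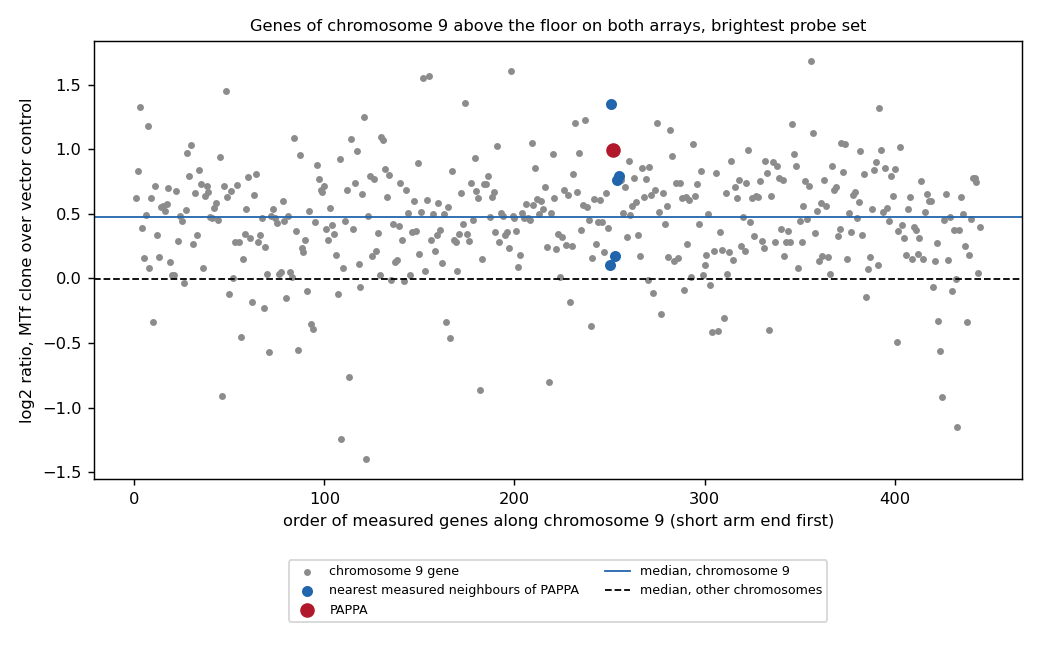
Log2 ratio (MTf clone over vector control) of the 445 chromosome 9 genes above the floor on both arrays, in gene order along the chromosome, with PAPPA in red and its nearest measured neighbours in blue. Most points lie above the dashed median of genes of other chromosomes (-0.0038), around the chromosome's own median of 0.48, and PAPPA stands at 0.99.

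IRS1, the adaptor that couples IGF1R to PI3K, was lower in the MTf clone on all 3 probe sets. The brightest, 204686_at, read 938.8 in the MTf clone and 1222.9 in the vector control, 1.30-fold lower. Probe set 242979_at read 338.6 in the MTf clone and 423.9 in the vector control, and 238933_at read 284.7 in the MTf clone and 399.9 in the vector control. The log2 ratios ran from -0.49 to -0.32, averaged -0.40 ± 0.084 (SD over 3 probe sets), and 2 of the 3 lay further from 0 than the pooled SD. The brightest stood at 0.12 when the arrays were centred on the hybridisation spikes. Of the 2418 genes with 3 or more probe sets, 135 had a lower mean. The neighbour RHBDD1, with 0 RefSeq genes between, was also lower, at 872.7 in the MTf clone and 1425.2 in the vector control. The nearest measured neighbour on the other side, CUL3, had a log2 ratio of 0.056. The 6 nearest ran from -0.71 to 0.73, with a median of -0.0025.

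The other genes of the pathway were taken from lists of 99 genes, of which 74 were measured. At least 2-fold higher were 0 of them and at least 2-fold lower 3, beside 1.21% and 1.90% of all measured genes. Below 0 on the log2 scale were 48 of the 74 (64.9%), beside 52.8% of all measured genes, and the median log2 ratio was -0.10. These splits follow the scaling: on the hybridisation spikes 15 of 19 receptor adaptors and 25 of 28 genes of the PI3K list were higher, and on the poly-A spikes 0 of 17 and 2 of 28. Of all measured genes 83.8% were higher on the hybridisation spikes and 5.09% on the poly-A spikes, so these counts lie near the share of all genes.

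Among 6 measured genes of the extracellular axis outside the members, 4 were higher and 2 lower, with a median log2 ratio of 0.31 as deposited and -0.30 on the poly-A spikes. The insulin receptor INSR read 892.2 in the MTf clone and 740.5 in the vector control, and IGFBP6, a binding protein with a preference for IGF2, read 795.9 in the MTf clone and 620.7 in the vector control. STC2, a stanniocalcin that binds and inhibits pappalysin-1, read 610.3 in the MTf clone and 1011.6 in the vector control, 1.66-fold lower, with a second probe set 1.10-fold lower. STC1, the other stanniocalcin, went the other way, at 575.7 in the MTf clone and 425.7 in the vector control, 1.35-fold higher. PAPPA2, the homologue of PAPPA and named after its values were seen, read 507.5 in the MTf clone and 679.7 in the vector control. PAPPA2 lies on chromosome 1, and it stood on the other side of 0 from PAPPA. The insulin gene INS and IGFBP1, which codes for a binding protein of liver and decidua, were below the floor on both arrays.

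Of 6 measured proteases reported to cut IGFBPs, 0 were higher and 6 lower in the MTf clone as deposited, with log2 ratios from -0.31 to -0.063, and 5 higher and 1 lower on the hybridisation spikes. Of all measured genes 52.8% were lower as deposited and 83.8% higher on the hybridisation spikes. ADAM9, a membrane metalloprotease, had a log2 ratio of -0.31 and the lysosomal proteases CTSB and CTSD -0.063 and -0.12. The list of proteins that bind IGF2 mRNA or act at its imprinted locus had 5 measured members and a median log2 ratio of 0.15, which was -0.46 on the poly-A spikes. IGF2BP3 read 9757.8 in the MTf clone and 8769.8 in the vector control, IGF2BP2 had a log2 ratio of 0.29 and the insulator protein CTCF 0.11.

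Receptor adaptors and their inhibitors numbered 17 measured genes, 6 higher and 11 lower. IRS2, the relative of IRS1, was bright in both lines at 29150 in the MTf clone and 31699.5 in the vector control, a log2 ratio of -0.12, and PTPN11 and SHC1 stood at -0.18 and -0.045. The member past 2-fold was SOCS3, a cytokine-induced inhibitor of receptor signalling, at 284.7 in the MTf clone and 646 in the vector control, 2.27-fold lower. This MTf clone signal is not far above the floor. The second SOCS3 probe set above the floor went the other way, at 247.4 in the MTf clone and 216.6 in the vector control.

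In the PI3K, AKT and mTOR list 28 genes were measured, 12 higher and 16 lower, with a median log2 ratio of -0.031. RHEB, the GTPase that activates mTOR, stood at 0.11, the translation repressor EIF4EBP1 at -0.30 and the forkhead factor FOXO3 at 0.33. PIK3CD, the delta catalytic subunit, read 199.6 in the MTf clone, just under the floor, and 461.4 in the vector control, at least 2.22-fold lower. Its other measured probe set stood at 222.4 in the MTf clone and 155.2 in the vector control, so the gene has no common direction. The 5 measured RAS and MAPK genes had log2 ratios from -0.31 to -0.028 as deposited, all of which were above 0 on the hybridisation spikes, with HRAS at -0.13, MAP2K1 at -0.028 and MAP2K2 at -0.034. The shares over all measured genes were 52.8% lower as deposited and 83.8% higher on the hybridisation spikes.

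The mannose 6-phosphate route, which makes and sorts the tag that IGF2R binds on lysosomal enzymes, had 7 measured genes, 0 higher and 7 lower as deposited, and 3 higher and 4 lower on the hybridisation spikes. Beside these counts, 52.8% of all measured genes were lower as deposited and 83.8% higher on the hybridisation spikes. The route's median log2 ratio was -0.54 as deposited, and its difference from that of all genes was -0.52. On the hybridisation spikes this difference was -0.49 and on the poly-A spikes -0.58. Centring moves every gene above the floor by as much, so the difference is nearly fixed in advance and its likeness across scalings is no support. NAGPA, the enzyme that uncovers the tag, read 256.8 in the MTf clone and 794.5 in the vector control on its single probe set, 3.09-fold lower. M6PR, the cation-dependent mannose 6-phosphate receptor, read 3086.3 in the MTf clone and 4618.6 in the vector control, 1.50-fold lower, also on 1 probe set. The sorting adaptors GGA1 and GGA2 had log2 ratios of -0.16 and -0.089. IGF2R, the other receptor of this route, stood at 0.045.

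**Figure D5:**
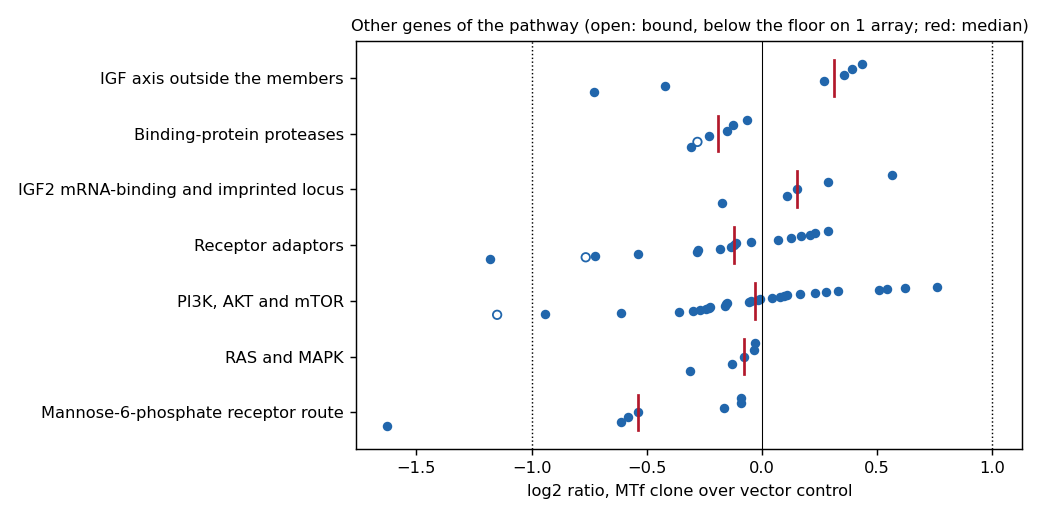
Log2 ratio (MTf clone over vector control) of the 74 measured genes of the 7 wider lists by their brightest probe set, with open circles for bounds and red bars for medians. As deposited, all 7 genes of the mannose 6-phosphate route lie left of 0, beside 52.8% of all measured genes. On the hybridisation spikes 4 of the 7 were lower, while 83.8% of all measured genes were higher. NAGPA (-1.63) lies furthest left, with an MTf clone signal not far above the floor.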

How the data were processed

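The deposited values are linear intensity values, 1 per probe set (54675) and array. GCOS version 1.3 is named per the submitters' processing notes. How signals were summarised and scaled is not given in the sources used here, nor are detection calls. After dropping the lowest and highest 2% of probe sets the deposited intensity averaged 1000.12 on both arrays. Gene names came from the platform annotation of 2016 (41097 probe sets with 1 gene, 1801 with several and left out, 11777 unnamed), and symbols were updated by gene ID through RefSeq (GRCh38.p14), which matched 41043. The probe set with the highest mean signal stood for its gene. A signal under the floor of 208 on 1 array was set to the floor, which makes the ratio a bound, and one under it on each array was left unmeasured. With 1 array per group no test was possible, and the small number of arrays limits precision throughout. Genes were counted at a ratio of 2 in either direction. The members, lists and settings were chosen with earlier results of these data known. Named genes were all members, wider-list genes at least 2-fold apart, the 3 brightest genes of each pathway list, MELTF and the 3 nearest measured neighbours on each side of a member. PAPPA2, STC1, INS, IGFBP1 and the marker genes CD99, STEAP1, NKX2-2, EWSR1, LIPI, KRT18, PTPRC, CDH5 and KRT8 were added after their values were seen. Alternatives covered scaling, floor and probe set choice. The software was Python 3.11.15 with numpy 2.4.6, pandas 2.3.3, statsmodels 0.14.6 and, for plots, matplotlib 3.10.9.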

Additional observations from a re-analysis of the deposited data

How the results depend on the processing

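Scaling moved the members' log2 ratios, and both scaling and the floor moved the counts, over all genes as well as here. The hybridisation spikes had a median log2 ratio of -0.50 and the poly-A spikes of 0.61, and centring subtracts that value from every log2 ratio, so it moves every gene above the floor by as much. By 1 value per gene, PAPPA stayed above 0 (0.38 to 1.49) and IGF1 below it (-1.11 to -0.0032) in all 10 alternatives. The floor settings among these could not change either sign, because both brightest probe sets lie well above every floor used. For IGF1 the choice of plain probe sets also kept the deposited value. The IGF1 value of -0.0032, on the hybridisation spikes, is almost no difference. Not every probe set kept its side. IGF1 probe set 211577_s_at turned positive on the hybridisation spikes, and PAPPA probe set 201982_s_at turned negative on the poly-A spikes. IRS1 (0.12) and IGFBP5 (0.22) turned positive on the hybridisation spikes. On the poly-A spikes IGF1R (-0.36), IGF2R (-0.57), IGFBP2 (-0.56) and IGFBP4 (-0.36) turned negative, and IGF2R was also negative (-0.017) as the median of its probe sets. Member genes at least 2-fold higher numbered 0 as deposited and 1 on the hybridisation spikes or with no floor, and those at least 2-fold lower 0 as deposited and 1 on the poly-A spikes. Of all measured genes 1.21% were at least 2-fold higher as deposited, 7.21% on the hybridisation spikes, 0.105% on the poly-A spikes and 7.89% with no floor. Member probe sets at least 2-fold higher numbered 1 as deposited, 8 on the hybridisation spikes, 0 on the poly-A spikes and 6 with no floor, and those at least 2-fold lower 0, with 3 on the poly-A spikes and 1 with no floor. Of all measured single-gene probe sets 1.24% were at least 2-fold higher as deposited, 7.91% on the hybridisation spikes, 0.0823% on the poly-A spikes and 9.26% with no floor, and 12.2% were at least 2-fold lower on the poly-A spikes and 18.2% with no floor. Wider-list genes at least 2-fold higher numbered 0 as deposited and 5 on the hybridisation spikes. Those at least 2-fold lower numbered 3 as deposited, 1 on the hybridisation spikes, 12 on the poly-A spikes, 5 with the floor divided by 2, 0 with it multiplied by 2, 11 with no floor, and 1 each as the median of a gene's probe sets or on plain probe sets alone. Of all measured genes 1.90% were at least 2-fold lower as deposited, 0.714% on the hybridisation spikes, 9.84% on the poly-A spikes, 6.78% with the floor divided by 2, 0.465% with it multiplied by 2, 17.7% with no floor, 1.39% as the median of a gene's probe sets and 1.76% on plain probe sets. Dim signals limit IGFBP3 and most IGFBP5 probe sets.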
